A study of Mus musculus with 2 samples.

Results

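The aminoacyl-tRNA synthetases, the enzymes that load amino acids onto transfer RNAs, were followed in single mouse bone marrow cells as 36 named genes of the 27998 genes counted. The members were taken from a list by gene symbol, which was drawn up with earlier results of these data known. It holds 20 genes of cytosolic enzymes and 16 genes, with a 2 at the end of the symbol, of mitochondrial enzymes. All 36 had a row in both matrices, and all 36 had at least 1 transcript count in each library. The study made 2 droplet libraries with 10x Genomics v2 chemistry, 1 per group, and each pooled cells of 3 naive mice. The marrow library came from CD45+ CD3- Ly6G- cells of C57BL/6 mice, and the Car1-GFP library came from CD45+ cells that expressed GFP in Car1-GFP reporter mice of the same background, a strain in which GFP reports the carbonic anhydrase gene Car1. The reporter construct and the sex and age of the mice were not given in the sources used here. Because the mice were pooled and each group is 1 library, no spread between animals can be given and no test between groups was made. Each value therefore carries a 95% interval that covers counting error only.

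After filtering, the marrow library held 6268 cells with 8303633 UMIs (unique molecular identifiers, 1 per captured transcript) and a median of 1031 per cell. The Car1-GFP library held 2400 cells with 42795219 UMIs and a median of 15512.5. The libraries shared 13 barcode sequences. Levels are given as UMIs per 1000000 UMIs (CPM), with no scaling by gene length because 1 UMI stands for 1 captured transcript. Car1 stood at 594 CPM in the Car1-GFP library and at 102 CPM in the marrow library. Ptprc, which encodes CD45, stood at 12.97 CPM in the Car1-GFP library against 303 CPM in the marrow library, although both gates are labelled CD45+. Ly6g, the antigen gated out of the marrow library, was still at 85.0 CPM there, and 585 of its 706 UMIs lay in cells of a neutrophil class. Of 10 genes known to be induced by cell dissociation, 7 were higher by 2-fold or more in the Car1-GFP library and 1 was lower by as much, where 22.5% of all genes were higher and 32.7% lower.

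Each synthetase recognises its amino acid and its own transfer RNAs and joins them with energy from ATP, so the set as a whole feeds every ribosome of the cell. Cytosolic enzymes serve the ribosomes that translate nuclear messages, and separate nuclear-encoded enzymes are imported to serve the ribosomes inside mitochondria, which make a few subunits of the respiratory chain. Gars and Kars supply both compartments, and Eprs joins the enzymes for glutamate and proline in a single protein. Several cytosolic enzymes are held in a multi-synthetase complex by the scaffold proteins Aimp1, Aimp2 and Eef1e1. Uncharged transfer RNA activates the kinase Gcn2 (Eif2ak4), and in red cell precursors low heme activates the related kinase Hri (Eif2ak1). Both phosphorylate eIF2 alpha, which favours translation of the transcription factor ATF4. ATF4 activates genes of amino acid supply, among them Asns, the enzyme of asparagine synthesis, and many cytosolic synthetases.

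The motif bound by ATF4 with C/EBP partners was looked for in the promoters of the members, because it is a sequence feature that the choice of members did not use. RefSeq promoters (GRCm38.p6, 250 bases before to 50 after the start) were matched by symbol for 26 of the 36 members, 12 cytosolic and 14 mitochondrial. The motif searched was TGATGNAAN on either strand. It was present in 5 of the 12 cytosolic promoters, those of Aars, Gars, Iars, Tars and Yars, and in 0 of the 14 mitochondrial promoters. Of all 27025 genes of the table, 4.50% held it. Synthetases often listed as ATF4 targets accounted for all 5 matches (5 of 7 with a promoter), while 0 of the 5 other cytosolic promoters held the motif. A match describes the letters of the window and is not a measured binding site. The windows are shown to let the matches be compared, 5′ to 3′ along the gene, with the matched bases in capitals. Aars has a match 113 bases before the RefSeq start (chr8:111033684-111033752, plus strand) and another 8 bases after it (chr8:111033805-111033858). The match of Gars (chr6:55037925-55037993, plus strand) begins 31 bases before the start and that of Tars (chr15:11399651-11399719, minus strand) 16 bases before it. Those of Iars (chr13:49682091-49682144, plus strand) and Yars (chr4:129189861-129189917, plus strand) begin 6 and 3 bases after the start. Asns, a much studied target of ATF4, is given for comparison (chr6:7693209-7693277, minus strand), with its match 23 bases before the start.
Aars, upstream match: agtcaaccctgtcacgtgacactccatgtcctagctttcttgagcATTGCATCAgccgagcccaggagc
Aars, downstream match: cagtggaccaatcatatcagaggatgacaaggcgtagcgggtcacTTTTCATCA
Gars: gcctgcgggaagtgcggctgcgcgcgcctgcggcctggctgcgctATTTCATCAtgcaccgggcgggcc
Iars: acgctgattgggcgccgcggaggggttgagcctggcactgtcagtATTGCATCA
Tars: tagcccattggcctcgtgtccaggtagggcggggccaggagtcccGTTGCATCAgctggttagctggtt
Yars: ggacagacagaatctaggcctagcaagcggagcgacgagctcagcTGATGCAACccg
Asns: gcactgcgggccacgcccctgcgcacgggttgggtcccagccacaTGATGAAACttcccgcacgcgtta
In Aars, Gars, Iars and Tars the motif lies on the strand opposite to the gene, so the capitals show its reverse complement. In Yars and Asns it lies on the strand of the gene.

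Both compartments stood higher in the Car1-GFP cells than in the broader marrow cells, and by a similar factor. The 20 cytosolic genes summed to 1354 CPM in the Car1-GFP library (57934 UMIs, interval 1343 to 1365) and to 698 CPM in the marrow library (5793 UMIs, 680 to 716). That is 1.94-fold, or 0.96 on the log2 scale (0.92 to 0.996). The 16 mitochondrial genes summed to 296 CPM (12688 UMIs, 291 to 302) and 135 CPM (1124 UMIs, 128 to 144), a 2.19-fold or log2 difference of 1.13 (1.04 to 1.22). Mitochondrial synthetases thus made up 17.97% (17.7 to 18.3) of all synthetase UMIs in the Car1-GFP cells and 16.2% (15.4 to 17.1) in the marrow cells. Without Lars2, which stood lower in the Car1-GFP cells, the shares were 17.5% and 14.9%.

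Counting single members, 10 of 20 cytosolic and 9 of 16 mitochondrial genes passed 2-fold towards the Car1-GFP cells, and 0 of 36 passed it towards the marrow cells. Of the 12076 genes with at least 20 UMIs over both libraries, 22.5% passed 2-fold towards Car1-GFP and 32.7% towards marrow, and their median log2 ratio was -0.23. The median member stood at 1.01 in the cytosolic and 1.09 in the mitochondrial group. Scaling by TMM factors instead of the library total adds 0.39 to every log2 ratio of this comparison. With it, 15 cytosolic and 13 mitochondrial members passed 2-fold, as did 30.9% of all genes.

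The largest cytosolic difference was that of Farsa, the catalytic subunit of phenylalanyl-tRNA synthetase (mm10 chromosome 8, 84856989 to 84869257, plus strand). It stood at 126.5 CPM (123 to 129.9) in the Car1-GFP cells and at 22.4 CPM (19.3 to 25.9) in the marrow cells, a log2 ratio of 2.50 (2.29 to 2.72). Farsb, which encodes the other subunit of the same enzyme, stood at 79.3 and 21.2 CPM, a ratio of 1.90. The mitochondrial phenylalanine enzyme Fars2, a separate monomeric protein, stood at 39.0 and 10.0 CPM, a ratio of 1.96 (1.64 to 2.30). All 3 genes for charging phenylalanine were therefore among the 5 highest ratios of their compartments. The remaining high cytosolic ratios belonged to the enzymes for tyrosine, histidine and glycine. Yars stood at 38.9 against 11.0 CPM (1.83), Hars at 83.8 against 26.0 CPM (1.69) and Gars at 85.9 against 27.5 CPM (1.65).

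At the other end, Nars, the asparagine enzyme (chromosome 18, 64499647 to 64516652, minus strand), was at 87.8 CPM in the Car1-GFP cells and at 105.4 CPM in the marrow cells. Its log2 ratio was -0.26 (-0.37 to -0.16) by library total and 0.13 with TMM factors, so its direction depends on the scaling. The threonine enzyme Tars hardly differed, with 31.7 and 30.2 CPM (0.07, -0.13 to 0.27). Iars, the isoleucine enzyme, stood at 27.4 and 22.0 CPM (0.31), Vars, the valine enzyme, at 69.5 and 52.4 CPM (0.41), and Lars, the leucine enzyme, at 39.7 and 27.1 CPM (0.55). The enzymes for the 3 branched-chain amino acids thus all fell among the 5 lowest cytosolic ratios of this comparison. Between erythroid and other marrow cells, Vars (1.42) stood above the median cytosolic member (1.18), and Iars (0.81) and Lars (0.72) below it.

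Among mitochondrial members the highest ratio, 2.83 for the proline enzyme Pars2, rested on 6 UMIs in the marrow library and has a wide interval (1.69 to 4.29). The tyrosine enzyme Yars2 (chromosome 16, 16302965 to 16309640, plus strand) was far better counted, with 37.1 CPM (35.3 to 39.0) against 9.03 CPM (7.10 to 11.3) and a ratio of 2.04 (1.70 to 2.39). Rars2, for arginine, stood at 34.5 and 9.15 CPM (1.92), and Ears2, for glutamate, at 8.88 and 2.41 CPM (1.88). The 5 highest mitochondrial members, Fars2 among them, thus each had an interval that lay wholly above a log2 ratio of 1. The only mitochondrial member below 0 was the leucine enzyme Lars2 (chromosome 9, 123366927 to 123462666, plus strand), at 9.81 CPM in the Car1-GFP cells and at 13.1 CPM in the marrow cells (-0.42, -0.73 to -0.10). With TMM factors it came to -0.03. Next lowest were the enzymes for isoleucine and valine, with Iars2 at 19.4 and 18.4 CPM (0.07) and Vars2 at 6.94 and 5.54 CPM (0.33). The 3 branched-chain enzymes of the mitochondrion were thus its 3 lowest ratios between the libraries, followed by Mars2 for methionine (0.69) and Wars2 for tryptophan (0.75). Between erythroid and other marrow cells, Iars2 (1.76) and Lars2 (1.18) stood above the median mitochondrial member (1.16), and Vars2 (0.43) below it.

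**Figure D1:**
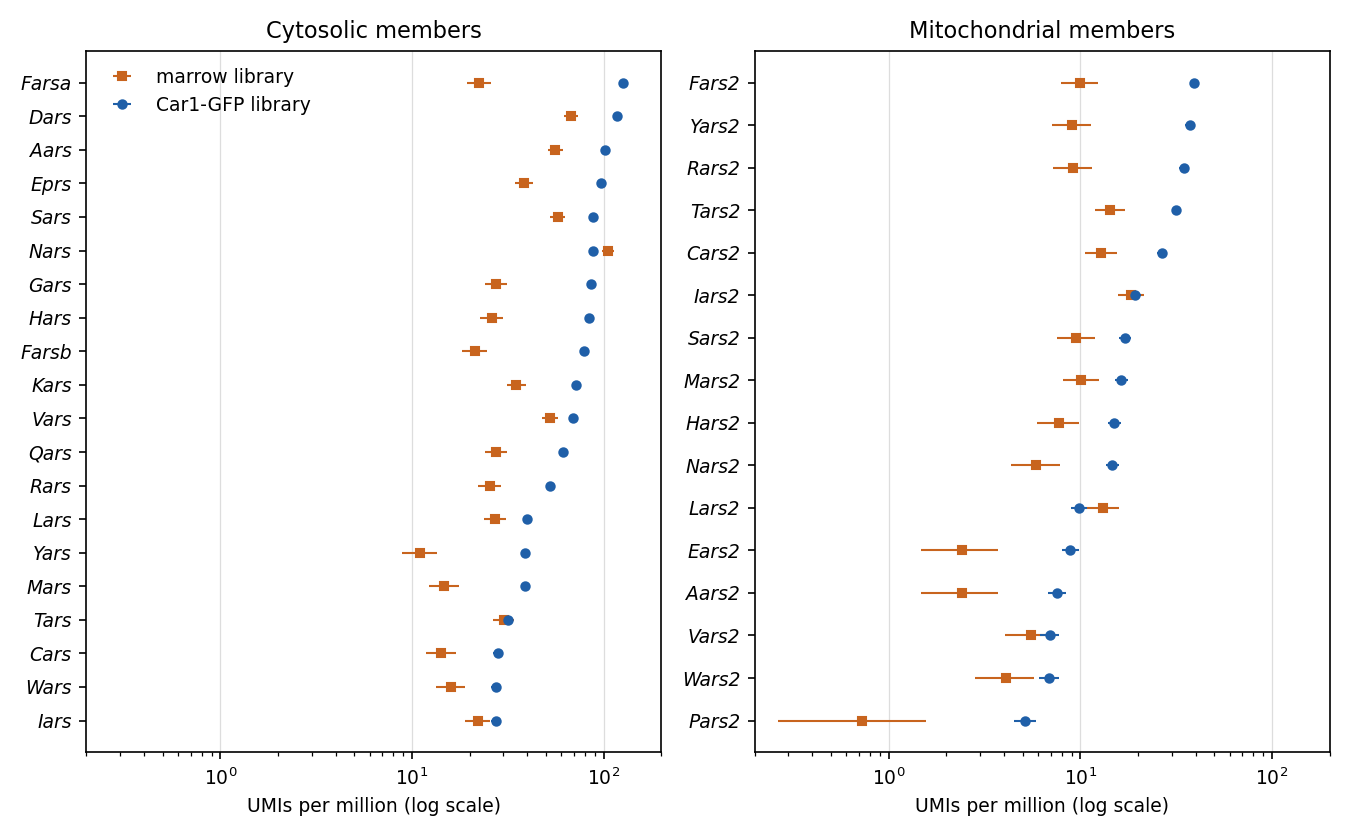
Level of each member in CPM (log axis) in the marrow library (orange squares) and the Car1-GFP library (blue circles), with 95% Poisson intervals of the counts, members ordered by their Car1-GFP level. The Car1-GFP point lies to the right of the marrow point for every member except Nars (87.8 against 105.4) and Lars2 (9.81 against 13.1), and the gap is widest on this axis for Farsa and Pars2.

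Between the libraries, grouping the cytosolic members by complex membership did not separate them. The 8 enzymes of the multi-synthetase complex (Dars, Eprs, Iars, Kars, Lars, Mars, Qars, Rars) summed to a log2 ratio of 0.97 (0.91 to 1.04), and the 12 members outside it to 0.95 (0.90 to 0.997). Between erythroid and other marrow cells these 2 groups came to 0.93 (0.77 to 1.09) and 1.21 (1.09 to 1.32). Without Hars the members outside the complex came to 1.14 there. Between the libraries, the single enzymes of the complex ran from 0.31 (Iars) to 1.40 (Mars), and its scaffold proteins from 0.80 to 2.43. Aimp2 stood at 89.1 against 16.5 CPM, Car1-GFP against marrow (2.43), Eef1e1 at 213 against 59.7 CPM (1.83) and Aimp1 at 150.2 against 86.0 CPM (0.80). The 12 members often listed as ATF4 targets summed to 0.72 (0.67 to 0.77), with 4 of 12 past 2-fold. The other 8 cytosolic members summed to 1.25 (1.19 to 1.32), with 6 of 8 past 2-fold, where 22.5% of all genes passed it. Much of this gap lay in single genes: without Nars the first group came to 0.94 (0.88 to 0.999), and without Farsa the second came to 1.07 (1.005 to 1.13). Between erythroid and other marrow cells both groups came to 1.11, and the first to 1.27 without Nars. Between the erythroid cells of the 2 libraries the groups came to -0.20 (-0.31 to -0.08) and 0.34 (0.21 to 0.48). There the first was -0.11 (-0.23 to 0.02) without Nars and the second 0.16 (0.02 to 0.31) without Farsa. The structural classes of the enzymes, class I and class II, gave nearly the same sums between the libraries, 0.95 and 0.96. Between erythroid and other marrow cells they came to 1.23 (1.07 to 1.38) and 1.04 (0.92 to 1.16).

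Counting by gene has a limit for some members. In the GENCODE M21 annotation of mm10, 17 of the 36 members overlap a gene on the opposite strand and 8 overlap another gene on the same strand. Hars (chromosome 18, 36766528 to 36783205, minus strand) and Hars2 (36783008 to 36792562, plus strand) overlap head to head, with annotated starts 197 bases apart. Mars overlaps Ddit3 on the opposite strand. The strand setting of the counting was not given in the sources used here, so reads of such partners may not be separable.

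Among marrow classes of at least 50 cells, the erythroid cells held the highest CPM of both compartments. The neutrophils held the lowest cytosolic CPM, over totals that include abundant neutrophil transcripts described below. The cells were clustered without the members, and each cluster was named as erythroid-like, neutrophil-like and so on from marker genes; the suffix is left out below. The 272 erythroid cells had 1349 CPM of cytosolic members (1271 to 1430) and 278 CPM of mitochondrial members (243 to 316). Granulocyte-monocyte progenitors (620 cells) followed with 934 and 174 CPM, and stem and multipotent progenitors (445 cells) with 899 and 189 CPM. The intervals of these 2 progenitor classes overlapped in both compartments. Both lay above monocytes (1759 cells), with 647 CPM (611 to 683) and 127 CPM (112 to 144). Neutrophils (2095 cells) had 347 CPM (324 to 371) and 63.9 CPM (54.3 to 74.6), below every other class with at least 50 cells in the cytosolic sum. Their mitochondrial sum was also the lowest, but its interval overlapped those of B lineage (40.4 to 145), conventional dendritic (52.7 to 169) and basophil/mast cells (69.7 to 198). The neutrophil class included a cluster of 183 cells with a low neutrophil marker score (0.17), led by Fcnb.

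The classes between these ends were less finely resolved. B lineage cells (102 cells) had 809 CPM of cytosolic members (665 to 975), basophil/mast cells (109 cells) 739.5 CPM, NK and innate lymphoid cells (167 cells) 665 CPM, plasmacytoid dendritic cells (544 cells) 661 CPM and conventional dendritic cells (129 cells) 572 CPM (450 to 716). Neighbouring intervals in this order overlapped. Mitochondrial sums of the same classes ran from 80.9 CPM (11 UMIs, 40.4 to 145) in B lineage cells to 151 CPM (119 to 189.6) in plasmacytoid dendritic cells. The mitochondrial share of synthetase UMIs was 17.1% (15.1 to 19.2) in erythroid cells, 15.5% (13.4 to 17.9) in neutrophils and 18.6% (14.9 to 22.8) in plasmacytoid dendritic cells, so these cell types differed in the sums and overlapped in the balance of the compartments. B lineage cells had the lowest share, 9.09% (4.63 to 15.7), from 11 mitochondrial and 110 cytosolic UMIs. The macrophage class had 26 cells with 31 cytosolic UMIs and 1 mitochondrial UMI, too few to place.

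**Figure D2:**
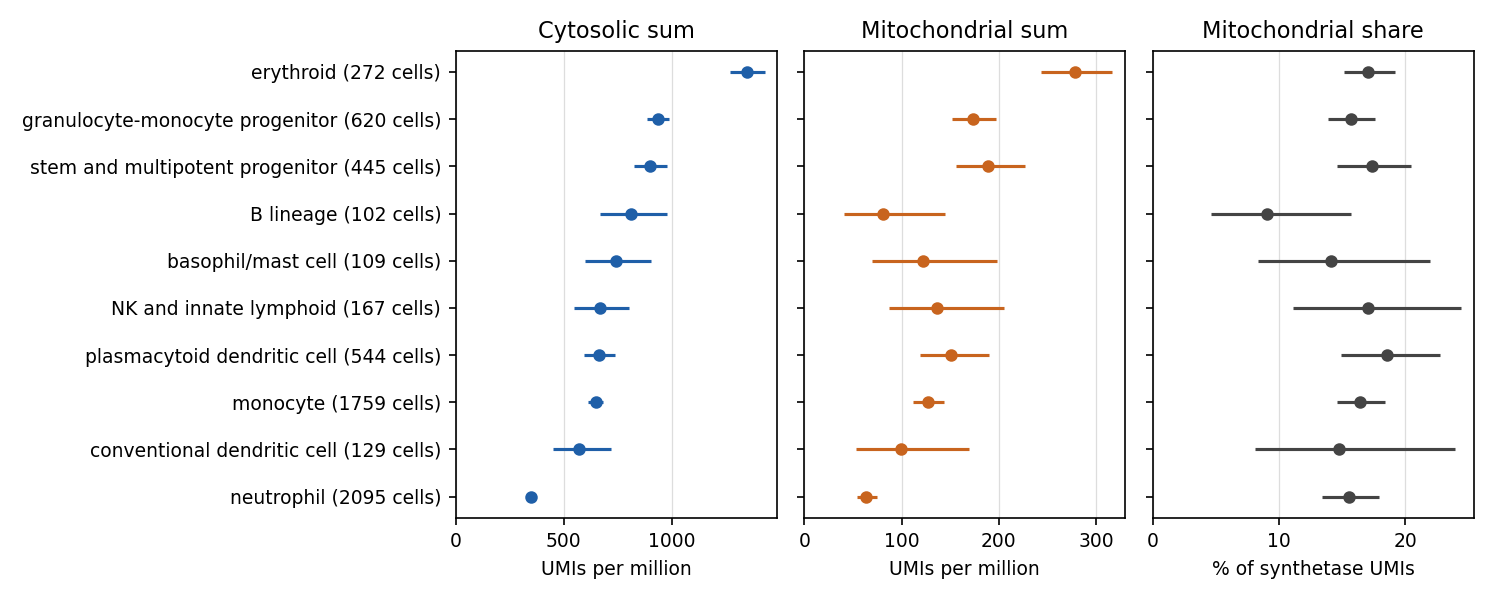
Summed cytosolic members (left) and mitochondrial members (middle), in CPM, and the mitochondrial percent of synthetase UMIs (right) in the 10 marrow classes of at least 50 cells, with 95% counting intervals. The erythroid class is highest in both sums (1349 and 278) and the neutrophil class lowest (347 and 63.9). The mitochondrial interval of neutrophils overlaps that of B lineage cells, among others, and the shares on the right overlap between most classes.

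Depth and abundant transcripts differed between these classes as well. Median UMIs per cell ran from 777 in plasmacytoid dendritic cells to 2580.5 in erythroid cells, with 1038 in neutrophils. S100a8 and S100a9, 2 abundant neutrophil transcripts, took 32.2% of neutrophil UMIs and 1.40% of erythroid UMIs, and both belong to the totals by which the CPM were divided. The sums were not computed without these 2 transcripts, so their part in the low neutrophil values was not tested. Among cells with at least 1000 UMIs, the cytosolic sums were 1364 CPM in erythroid cells and 372 CPM in neutrophils, and the mitochondrial sums 282 and 67.8 CPM. The order of erythroid cells and neutrophils therefore held at that depth. The mitochondrial sum of B lineage cells was 68.2 CPM there, close to that of neutrophils.

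Set against all other marrow cells, the erythroid class was 2.16-fold higher in the cytosolic sum (log2 1.11, 1.01 to 1.20) and 2.33-fold higher in the mitochondrial sum (1.22, 1.005 to 1.43). Higher by 2-fold or more were 13 of 20 cytosolic members and 11 of the 15 mitochondrial members with enough UMIs, and 0 were lower by as much. Of 10429 genes with at least 20 UMIs, 17.1% were higher and 24.8% lower by that measure, with a median log2 ratio of 0.08. The class was named from erythroid genes and the members took no part in the clustering. TMM factors lower each of these ratios by 0.26.

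Hars, the histidine enzyme, led the cytosolic members with 82.7 CPM (64.4 to 105) in erythroid cells and 19.7 CPM in the others, a log2 ratio of 2.07 (1.64 to 2.49). Eprs, of the complex, followed with 101.9 against 31.3 CPM (1.70), then Yars with 27.6 against 9.10 CPM (1.60). Tars, which barely differed between the libraries, stood at 75.5 against 25.2 CPM (1.59) inside the marrow library. The lowest cytosolic ratio was that of the aspartate enzyme Dars, 83.9 against 65.5 CPM (0.36). Of the mitochondrial members, Nars2 stood at 20.4 against 4.28 CPM (2.25, 1.31 to 3.14), Iars2 at 50.3 against 14.9 CPM (1.76) and Sars2, for serine, at 22.8 against 8.03 CPM (1.503). The cysteine enzyme Cars2 was level, at 11.99 and 12.99 CPM (-0.12). Over the 10 classes, 13 of 20 cytosolic members and 9 of the 15 mitochondrial members with at least 20 marrow UMIs reached their highest CPM in erythroid cells, where 16.8% of the 10429 genes with as many UMIs did. Neutrophils alone held the lowest CPM of 12 of the 20 cytosolic but only 2 of the 15 mitochondrial members, against 22.1% of those genes. The order at the low end is poorly counted for mitochondrial members, since 12 of the 15 had 0 UMIs in at least 1 of the classes.

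For the other classes, the members with the largest ratios to the remaining marrow cells are given. In some of these classes no named member had an interval clear of 0. In granulocyte-monocyte progenitors, Nars reached 183 CPM (161 to 208) against 90.3 CPM in the remaining cells (1.02), its highest level in any class. Mars stood there at 28.2 against 12.1 CPM (1.22), Farsa at 39.4 against 19.1 CPM (1.04), Yars2 at 17.1 against 7.47 CPM (1.19), Tars2 at 23.8 against 12.5 CPM (0.93) and Rars2 at 14.8 against 8.05 CPM (0.88). Nars is the asparagine enzyme and was also the cytosolic member that did not stand higher in the Car1-GFP library. Stem and multipotent progenitors had Lars at 51.1 against 25.2 CPM (1.02), Farsa at 41.2 against 20.9 CPM (0.98) and Yars at 18.1 against 10.4 CPM (0.80, -0.26 to 1.72). Their mitochondrial members of note were Sars2 (19.8 against 8.71 CPM, 1.18), Tars2 (29.6 against 13.1 CPM, 1.18) and Mars2 (18.1 against 9.48 CPM, 0.93, -0.13 to 1.86). The intervals of Yars and Mars2 reach below 0, so counting error alone can span those differences.

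In neutrophils every named member was lower. Tars stood at 7.63 against 39.9 CPM (-2.39, -3.14 to -1.71), Farsb at 6.43 against 27.5 CPM (-2.10) and Iars at 8.03 against 28.0 CPM (-1.80). Tars2 (-1.36), Iars2 (-1.28) and Mars2 (-1.23) were the lowest mitochondrial members there. Monocytes had lower Farsa (13.4 against 25.1 CPM, -0.90), Eprs (25.3 against 42.4 CPM, -0.74), Dars (49.1 against 72.9 CPM, -0.57) and Tars2 (8.79 against 16.02 CPM, -0.87). For Yars2 (-0.67) and Cars2 (0.55) the monocyte intervals included 0. In B lineage cells Vars stood at 103 against 51.5 CPM (0.999, 0.11 to 1.76), and Sars (0.86) and Dars (0.13) had intervals that included 0. So did every named member of basophil/mast cells (Nars 0.47, Dars 0.32), NK and innate lymphoid cells (Vars 0.57, Sars 0.43, Nars 0.02) and conventional dendritic cells (Sars 0.55).

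Wars, the tryptophan enzyme, is known as an interferon-inducible synthetase, and its order over the classes was not that of the cytosolic sum. It stood at 38.1 CPM (5 UMIs, 12.4 to 89.0) in basophil/mast cells, 32.7 CPM (18.7 to 53.0) in plasmacytoid dendritic cells and 27.6 CPM (17.5 to 41.4) in erythroid cells. It was at 19.8 CPM in stem and multipotent progenitors, 18.6 CPM in granulocyte-monocyte progenitors, 16.02 CPM in monocytes, 15.2 CPM in conventional dendritic cells, 11.9 CPM in NK and innate lymphoid cells and 6.02 CPM (3.37 to 9.94) in neutrophils. B lineage cells had 0 UMIs of Wars, with an upper limit of 27.1 CPM. In plasmacytoid dendritic cells, which specialise in making interferon, Wars was the only named member above the other cells with an interval clear of 0 (1.13, 0.27 to 1.88), while Aars (-0.64) and Cars (0.56) had intervals that included 0. Iars stood at 36.0 CPM (24.3 to 51.3) in erythroid cells, with a ratio to all other marrow cells of 0.81 (0.20 to 1.38). It was at 34.2 CPM in granulocyte-monocyte progenitors, 32.9 in stem and multipotent progenitors and 28.6 in plasmacytoid dendritic cells. Monocytes had 22.2 CPM, and the smaller classes of conventional dendritic and basophil/mast cells had 30.5 and 22.9, from few UMIs. It was at 11.9 CPM in NK and innate lymphoid cells, 8.03 CPM (4.91 to 12.4) in neutrophils and 7.36 CPM from 1 UMI in B lineage cells.

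When erythroid cells of both libraries were set side by side, the difference between the libraries in the 2 sums was no longer seen. The 1627 erythroid Car1-GFP cells had 1389 CPM of cytosolic members against 1349 CPM in the 272 erythroid marrow cells, a log2 ratio of 0.04 (-0.04 to 0.13). Mitochondrial members stood at 301 against 278 CPM (0.11, -0.08 to 0.31). Only 1 cytosolic member was at least 2-fold higher and 1 lower, with 3 and 2 of the mitochondrial members, where 16.8% of 10756 genes were higher and 27.8% lower. The intervals bound the counting error of the sums and do not show that the cells were alike.

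The members that still differed between the erythroid cells of the libraries went in opposite directions. Farsa stood at 125.9 CPM in Car1-GFP cells against 40.8 CPM in marrow cells (1.63), Fars2 at 39.3 against 19.2 CPM (1.04) and Cars2 at 27.0 against 11.99 CPM (1.17). Pars2 was at 5.17 against 1.20 CPM, the latter a single UMI. Tars, on the contrary, was at 32.7 against 75.5 CPM (-1.21), Iars2 at 20.4 against 50.3 CPM (-1.30) and Lars2 at 10.3 against 26.4 CPM (-1.36). These Car1-GFP cells are part of those in the library comparison, so the values are not a second observation of it. Of the dissociation genes, 7 of 9 were at least 2-fold higher in the erythroid Car1-GFP cells (16.8% of all genes were), with a median of 2.48 against -0.23 for all genes. S100a8, a neutrophil transcript, was at 8332 to 9590.1 CPM of non-globin UMIs in the erythroid marrow cells split by globin share, and the part of either in these ratios was not tested. The remaining 773 Car1-GFP cells, in 2 clusters left unnamed, took no part in this comparison, although erythroid was the best-scoring class of both clusters.

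Globin transcripts accumulate as erythroid cells mature, so the Car1-GFP cells were ordered by their globin share. Between its ends the cytosolic sum differed little and the mitochondrial sum stood lower in the cells richest in globin, but the ends also held different cell clusters. Values here are CPM of non-globin UMIs, so that globin itself does not dilute them. Cells were ordered by globin share into 10 bins of 240 cells. Bins 1 to 8 spanned shares of only 0.211% to 0.748%, so they do not order maturation finely. Bin 9 reached 2.16% and bin 10 reached 54.0%. From bin 1 to bin 8 the cytosolic sum stayed between 1310.2 and 1409 and the mitochondrial sum between 285 and 321. Bin 10 had 1308 (1271 to 1347) and 249 (233 to 266), against 1378 (1342 to 1415) and 305 (288 to 323) in bin 1.

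The log2 ratio of bin 10 over bin 1 was -0.07 (-0.13 to -0.02) for the cytosolic sum and -0.30 (-0.42 to -0.17) for the mitochondrial sum. Accordingly, the mitochondrial share was 18.1% in bin 1 and 15.98% in bin 10. Of the members, 0 were higher by 2-fold or more, and 1 of 16 mitochondrial members, the valine enzyme Vars2, was lower by as much (8.10 to 2.54, -1.67, -2.93 to -0.57). Over 8929 genes with at least 20 UMIs, 7.25% were higher and 13.1% lower by that measure, with a median of -0.14. The count of members is thus below the general share in both directions.

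The bins were not the same mix of cells. Of the 240 cells, 96 belonged to the unnamed clusters in bin 1 and 4 in bin 10. Gata2, a gene of early progenitors, was at 70.1 in bin 1 and 18.1 in bin 10, Pf4, of megakaryocytes, at 117.7 and 25.4, and S100a8 at 289 and 99.3. Jun, of the dissociation list, was at 165 and 82.4. Of that list, 0 of 9 genes were at least 2-fold higher in bin 10 and 3 lower (7.25% and 13.1% of all genes). The list had a median of -0.70. The part of these genes in the ratios was not tested. With erythroid cells alone in 10 bins, the cytosolic ratio was -0.15 and the mitochondrial ratio -0.40.

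**Figure D3:**
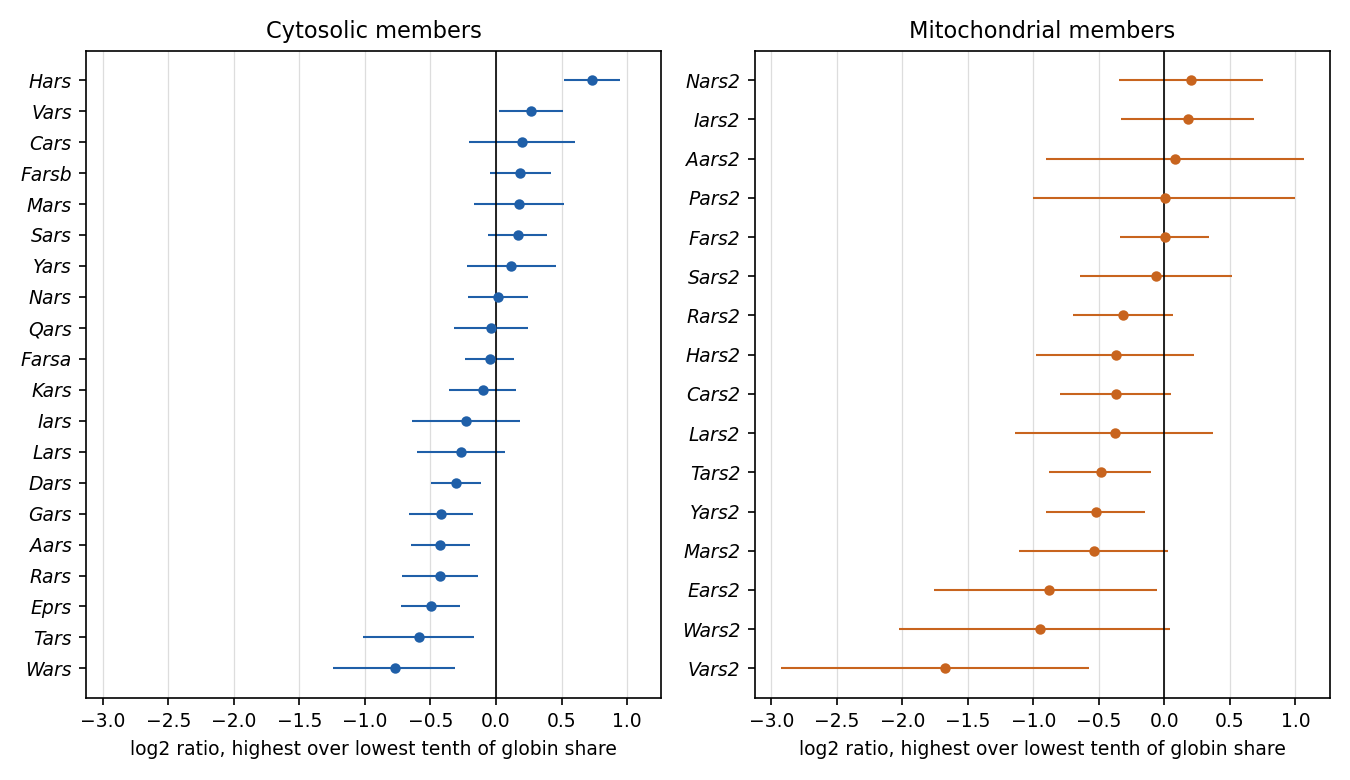
Log2 ratio of each member between the 240 Car1-GFP cells with the highest globin share and the 240 with the lowest, in CPM of non-globin UMIs, with 95% counting intervals; the vertical line marks 0. Hars (0.73) stands apart to the right among cytosolic members, Wars (-0.77) is farthest left, and 5 of the 16 mitochondrial points lie above 0, the highest being Nars2 (0.21).

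Hars was the member that stood out in the globin-rich cells, at 128 (117 to 140.4) in bin 10 and 77.2 (68.8 to 86.4) in bin 1, a log2 ratio of 0.73. Its neighbour Hars2, which overlaps it head to head, went the other way, at 11.6 and 14.9 (-0.37, with an interval that included 0). The next highest cytosolic ratios were small, 0.27 for Vars, 0.20 for Cars and 0.18 each for Farsb and Mars. Of these, only the interval of Vars (0.02 to 0.51) excluded 0. Lower in bin 10 were Wars (17.2 against 29.4, -0.77), Tars (21.7 against 32.7, -0.59), Eprs (75.9 against 107, -0.50), Rars (47.7 against 64.1, -0.43) and Aars (77.0 against 103, -0.42). Enzymes of the multi-synthetase complex summed to 461 in bin 10 and 547 in bin 1 (-0.25, -0.34 to -0.16), while the cytosolic members outside it summed to 848 and 831 (0.03, -0.04 to 0.10), or to 719.7 and 753 without Hars (-0.07, -0.14 to 0.01). The members often listed as ATF4 targets came to -0.20 (-0.28 to -0.12), and the other cytosolic members to 0.05 (-0.03 to 0.13), or to -0.07 (-0.16 to 0.02) without Hars.

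Among the mitochondrial members no ratio above 0 had an interval clear of it. The highest were Nars2 (16.6 against 14.4, 0.21), Iars2 (19.5 against 17.2, 0.18), Aars2 (5.36 against 5.06, 0.08), Pars2 (5.08 against 5.06, 0.00) and Fars2 (40.1 against 40.0, 0.00). The cytosolic phenylalanine genes Farsa and Farsb had ratios of -0.05 and 0.18 (-0.05 to 0.42). The lowest were Vars2, Wars2 (3.67 against 7.09, -0.95), Ears2 (5.36 against 9.88, -0.88), Mars2 (12.4 against 17.98, -0.53) and Yars2 (27.4 against 39.2, -0.52). Ears2 charges glutamate and, with an amidotransferase, also provides mitochondrial glutamine.

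Because most bins were so narrow, the cells were also grouped in fixed bands of globin share, chosen after the data were seen. The bands held 2022 cells under 1%, 127 cells from 1% to under 2%, 152 from 2% to under 5%, 53 from 5% to under 10% and 46 of 10% and over. In this order the cytosolic sum was 1368, 1470.2, 1342, 1234 and 1291, and the mitochondrial sum 308, 266, 262, 222 and 223. The mitochondrial share was 18.4% (18.1 to 18.7) in the lowest band and between 14.7% and 16.3% in the others. Hars was at 77.8 in the lowest band and at 119, 129.7, 127 and 104 in the next 4, all above it, although the interval of the last (71.9 to 145) includes the lowest band. Wars was at 29.6 and then at 19.6, 17.7, 16.2 and 15.3. Eprs was at 100.12, 97.6, 74.8, 78.6 and 70.2, and Yars2 at 39.0, 32.3, 29.9, 22.5 and 21.4. Between the 99 cells of 5% and over and those under 1%, the cytosolic log2 ratio was -0.13 (-0.21 to -0.05) and the mitochondrial -0.47 (-0.66 to -0.29). Of the cells under 1%, 766 were of the unnamed clusters, against 7 in the other 4 bands together. Within the erythroid class alone the mitochondrial sum was 315, 267, 263, 224 and 216 over the bands, and the ratio of 5% and over against under 1% was -0.51. Hars was there at 83.9, 119, 131, 129 and 106, and Wars at 29.3, 19.8, 17.5, 16.5 and 16.1. Farsb was highest in the middle band, at 78.7, 89.2, 96.3, 76.1 and 58.0 over the bands of all cells. Median UMIs per cell were 14971, 20750, 17195, 15373 and 7450.5 in the 5 bands, so the richest band was also the shallowest, and the part of depth was not tested.

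**Figure D4:**
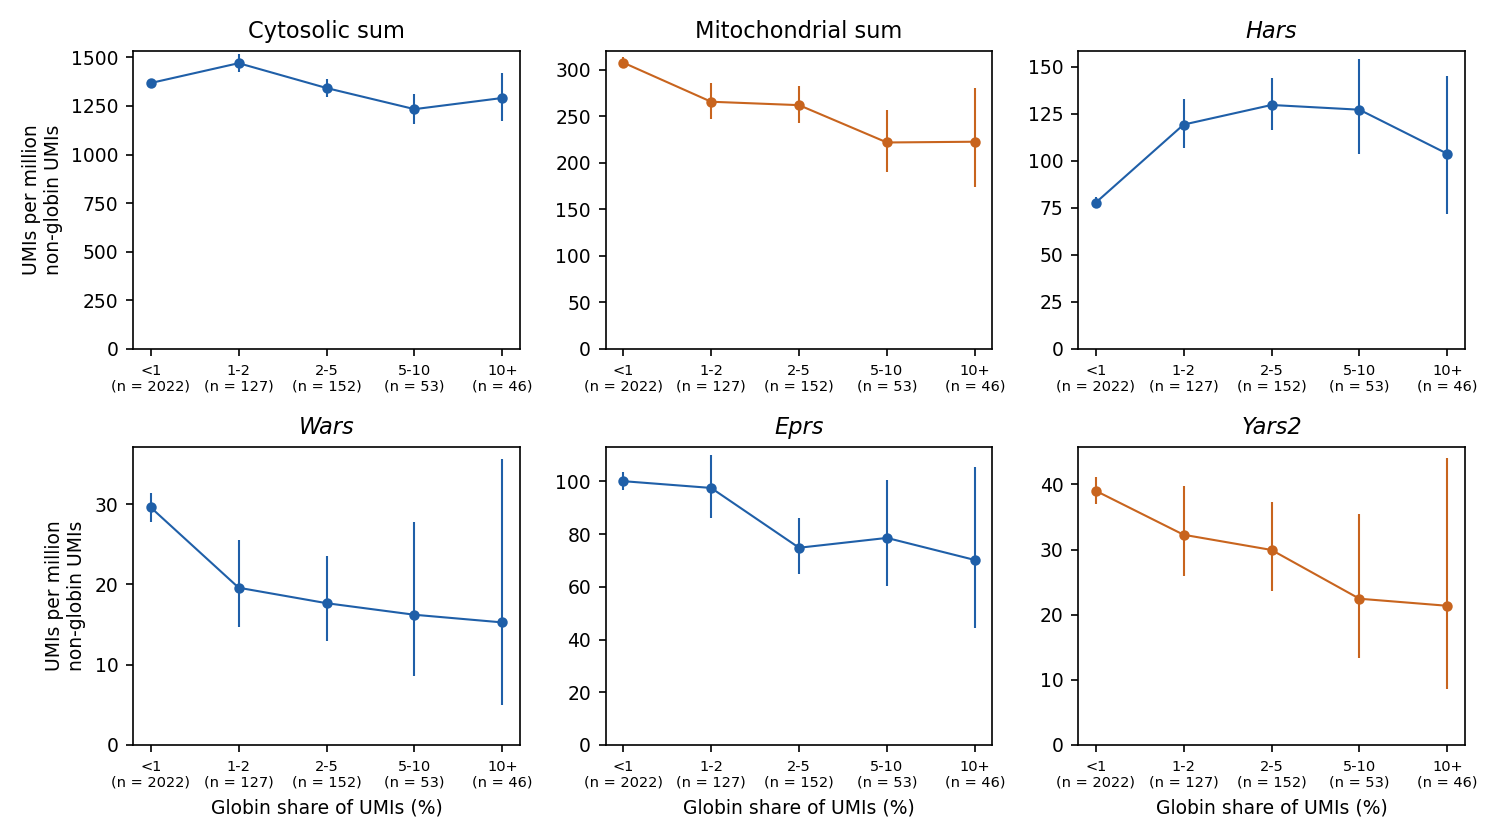
Cytosolic sum, mitochondrial sum and 4 members in 5 bands of globin share of the Car1-GFP cells, in CPM of non-globin UMIs, with 95% Poisson intervals and the number of cells in each band. The mitochondrial sum is 308 in the lowest band and 223 in the highest, Hars is above its lowest-band value of 77.8 in all other bands, and Wars is at 29.6 in the lowest band and 15.3 in the highest.

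A much smaller set of erythroid cells was available in the marrow library. Ordered by globin share into 3 groups of 91, 91 and 90 cells, they had cytosolic sums of 1480.3, 1329.6 and 1209 and mitochondrial sums of 336 (279 to 400.1), 297 (238 to 366) and 131 (80.2 to 203) CPM of non-globin UMIs. Hars stood at 56.8, 94.5 and 131 (80.2 to 203) in the same order, and Wars at 40.6, 23.6 and 6.57, the last from 1 UMI. Hars thus was higher and the mitochondrial sum lower in the globin-rich group here too, while the cytosolic sum, close between the ends in the Car1-GFP library, went from 1480.3 (1358.8 to 1609.7) to 1209 (1040.3 to 1396). Median UMIs per cell were 3650, 2958 and 1526 in these groups, and the part of depth in these differences was not tested. In the Car1-GFP library the median of bin 10 was 15453.5 UMIs and that of bin 1 was 13186.

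The partner genes of amino acid supply were read on the same scales. Asns stood at 95.0 CPM in the Car1-GFP cells and at 7.71 CPM in the marrow cells (3.62, 3.27 to 4.004), and at 34.8 CPM in erythroid against 4.69 CPM in other marrow cells (2.89, 2.13 to 3.64). It was at 129.8 in bin 10 and 88.6 in bin 1 of globin share (0.55). Asns, which supplies the substrate of Nars, thus had a larger ratio between the libraries than any cytosolic synthetase. Atf4 itself stood at 126 against 56.2 CPM (1.16), at 87.5 against 52.7 CPM (0.73) and at 136.5 against 119 (0.20) in these 3 comparisons. Ddit3, another target of the pathway, had ratios of 1.21, 0.54 and 0.51, and reads of it may be shared with Mars as described above. Trib3 and Chac1, which mark strong activation, were close to absent, with 15 and 1 UMIs in the whole Car1-GFP library and 3 and 13 in the marrow library.

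Taken as a list, the amino acid response genes moved in both directions. Of 26 genes, 23 had enough UMIs between the libraries, 9 were at least 2-fold higher and 4 lower, where 22.5% of all genes were higher and 32.7% lower, and the median was 0.32 against -0.23 for all genes. Those lower included Cebpb, a myeloid transcription factor, at 0.304 against 271 CPM (-9.80), Atf3 (-3.37) and Nupr1 (-3.36). In erythroid against other marrow cells, 8 of 20 were higher and 2 lower (17.1% and 24.8% of all genes), led by Ppp1r15a, which directs the phosphatase that reverses eIF2 alpha phosphorylation (32.4 against 2.54 CPM, 3.67). Along globin share, 1 of 18 was higher (Ppp1r15a, 57.0 against 17.2, 1.73) and 2 lower (Ddit4, -1.89, and Phgdh, of serine synthesis, -1.41), close to the 7.25% and 13.1% of all genes. The 5 synthetases that share the promoter motif with Asns (3.62) had library ratios of 1.83 (Yars), 1.65 (Gars), 0.85 (Aars), 0.31 (Iars) and 0.07 (Tars).

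Among the eIF2 alpha kinases, Eif2ak1 was level between the libraries, at 26.6 and 26.1 CPM (0.03). It was at 46.7 against 23.8 CPM in erythroid against other marrow cells (0.97), and at 58.7 against 24.1 in bin 10 over bin 1 (1.29, 0.93 to 1.65). Over the 5 globin bands it was at 22.6, 41.7, 48.0, 71.1 and 94.6, higher in each band than in the band before it, although from 1% upwards the intervals of neighbouring bands overlapped. Eif2ak4 was low throughout, at 5.72 and 7.23 CPM (-0.34) in the libraries, and at 3.67 against 7.60 in the globin bins (-1.05). Eif2ak3, the kinase of the endoplasmic reticulum, was at 2.17 against 13.7 CPM (-2.66) in the library comparison. Of the 4 kinases, 0 were at least 2-fold higher and 1 lower in the Car1-GFP library, where 22.5% of all genes were higher and 32.7% lower.

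The factors that use the charged transfer RNAs were compared between the libraries as well. All 5 cytosolic elongation factors passed 2-fold towards the Car1-GFP cells, as did 22.5% of all genes, with Eef1g at 1836 against 389 CPM (2.24), Eef1d at 736 against 167 CPM (2.14) and a median of 1.93. Of 15 partners of mitochondrial translation, 7 were at least 2-fold higher, 1 was lower (32.7% of all genes were) and 7 passed it in neither direction, with a median of 0.94. Tufm, the mitochondrial elongation factor that carries charged transfer RNA to the ribosome, stood at 63.1 against 22.6 CPM (1.48), and its exchange factor Tsfm at 107 against 25.9 CPM (2.05). Lrpprc, which stabilises mitochondrial messages, was lower (7.69 against 16.1 CPM, -1.07). In bin 10 of globin share Tufm was at 52.8 against 67.6 (-0.36) and Tsfm at 76.5 against 113 (-0.56). Of the 15 mitochondrial partners, 0 were at least 2-fold higher there and 2 lower (Polrmt, the mitochondrial RNA polymerase, -1.28, and Qrsl1, a subunit of the glutamine amidotransferase, -1.03), with a median of -0.46. Of all genes, 13.1% were lower by as much, so the count of 2 of 15 is near the general share. The 5 cytosolic elongation factors had a median of -0.13 there, against -0.14 for all genes.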

How the data were processed

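The authors deposited UMI counts as whole-number matrices of 27998 genes, 1 matrix for each of 2 libraries, with 1 library per group. Per the submitters' processing notes, Cell Ranger 2.1, Seurat 2 and the build mm10 were used; the strand and multi-mapping settings were not given in the sources used here. Per the labels, 10x Genomics v2 libraries were made, and the series design gives 10000 cells loaded. The members, gene lists and comparisons were chosen with earlier results of these data known, so none is independent evidence of its direction.

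Barcodes with at least 500 UMIs and under 10% mitochondrial UMIs were kept. Scrublet calls were removed where they reached 0.5% of cells: 171 marrow barcodes (2.66%) were dropped, and the 9 Car1-GFP barcodes called (0.375%) stayed in. Mitochondrial filtering removed 19 and 122 barcodes. Clusters were found per library with scanpy 1.11.5 and leidenalg 0.10.2 under Python 3.11.15, using 2000 variable genes, 30 components, 15 neighbours and Leiden resolution 1. The 98 genes of the members and partner lists were left out of the clustering. A cluster was named from marker lists by a rule set after the data were seen. It needed at least 3 markers at 2-fold, and no lead of another class among its top 10 genes over the marrow cells. A cluster stayed unnamed if, in its top 10 genes within its library, markers of all other classes together exceeded its own by 3 or more. So did a cluster far below the median depth of its library with no marker of its own in that top 10. Cell types are thus rebuilt, not the authors' own.

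Counts were summed and divided by all UMIs of the group (CPM), or by non-globin UMIs for globin bins. Intervals (95%) are exact Poisson for levels, exact binomial for shares and conditional binomial for ratios, and cover counting error only, since UMIs do not measure differences between mice or preparations. No test was possible with 1 library per group. Only genes reaching 20 UMIs in the 2 sides together were counted past 2-fold. A count of 0 was given its upper Poisson limit. TMM factors came from edgeR 4.0.16 (R 4.3.3) and served as an alternative scaling only. The counting and ratio scripts were tested on simulated data.

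Named genes followed a rule. It took the sums, and the 5 highest and 5 lowest members of each compartment between the libraries and between globin bins. For each marrow class it took up to 3 members per compartment with the largest ratios and at least 10 UMIs in the class, and Wars and Iars in every class. It also took fixed partners with up to 4 of each partner list. Genes named beyond it, between the erythroid cells of both libraries, in the globin bands, at the ends of the erythroid class and as the few partners that passed 2-fold, were chosen after their values were seen. Positions are those of GENCODE M21 (mm10), in which all 36 identifiers were found.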

Additional observations from a re-analysis of the deposited data

How the results depend on the processing

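Of 79 recomputed values, 51 stayed within the counting interval (for counts of members, within 1.5 times), 26 moved and 2 reversed. The 2 are globin ratios near 0: without Hars, cytosolic members outside the complex came to -0.066 and those not listed as ATF4 targets to -0.071. Settings that leave out a member or use fixed globin bands, and doublet removal in globin bins, were chosen after seeing the data. Car1-GFP over marrow, the cytosolic and mitochondrial log2 ratios came to 1.35 and 1.52 with TMM factors, 1.09 and 1.27 with every cell weighted equally, and 0.81 and 1.01 with marrow cells of at least 1000 UMIs. With erythroid cells of both libraries they came to 0.043 and 0.11, with 1 and 3 members at least 2-fold higher, where 16.8% of all genes were. Without Lars2 the mitochondrial ratio was 1.23 and the mitochondrial shares were 17.5% (Car1-GFP) and 14.9% (marrow). Erythroid over other marrow cells, TMM factors gave 0.85 and 0.96, and cells of at least 1000 UMIs gave a cytosolic 1.01. For the highest over the lowest globin bin, the cytosolic ratio was -0.011 with equal cell weights, -0.015 with 5 bins, -0.17 over all UMIs, -0.15 in erythroid cells only, and -0.17 for 5% and over against under 1% in erythroid cells. The mitochondrial ratio was -0.43 with 20 bins, -0.47 for 5% and over against under 1%, and -0.51 for the same in erythroid cells. The cause was not tested. The direction of the full cytosolic and mitochondrial globin ratios held in all of these, but the cytosolic one is close to 0.

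No paired analysis was possible because each group holds 1 library, and for the same reason no replicate could be left out. Depth limits the marrow classes most: the mitochondrial members had 11 UMIs in B lineage cells and 13 in conventional dendritic cells.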

Other observations

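The 773 Car1-GFP cells left unnamed fell in 2 clusters whose top 10 genes within their library included markers of other classes. Against the marrow cells, erythroid was still the best-scoring class of both, with 11 and 12 erythroid markers at 2-fold. Their mean marker log2 ratios were 1.97 and 2.02, against 2.02 in a named erythroid cluster of 313 cells. The larger (577 cells, median 6482 UMIs) was led by Vim, Plac8, Sox4, Ifitm1, Egr1, Gzmb, Gmfg, Nkg7, Gata2 and Jun. It had 1149.7 cytosolic and 269 mitochondrial synthetase CPM of non-globin UMIs. The smaller (196 cells, median 13455 UMIs) was led by S100a8, S100a9 and Camp, with S100a8 at 611 CPM, and had 1223 and 290 (interval 270.1 to 310.1). Named erythroid clusters with at least 100 cells ran from 1212 (200 cells) to 1646 (122 cells) in the cytosolic sum.

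Hars differed between clusters of the Car1-GFP library more than the sum did. It was at 49.0 in the cluster of 577 cells, 57.5 in that of 196 cells, 112 in a cluster of 206 cells, 133 in the globin-rich cluster of 183 cells and 141 in that of 122 cells. Asns stood at 37.4, 41.3, 155.7, 128.8 and 197 in the same clusters, while Farsa stood at 136, 122, 132.9, 117.5 and 125. These clusters were seen first and the genes chosen after, and no test was made.

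Synthetase levels also differed with depth inside the Car1-GFP library. Over 5 groups of 480 cells by total UMIs (medians 5757, 9305.5, 15512.5, 22943 and 33610.5), the cytosolic sum was 1173, 1200.4, 1276, 1348 and 1503 and the mitochondrial sum 269.9, 265, 290.5, 291 and 324 CPM of non-globin UMIs. The mitochondrial share stayed between 17.8% and 18.7%. Hars was at 56.8 in the shallowest and 95.3 in the deepest group, and Wars at 31.7 and 28.8. S100a8 stood at 410 CPM in the shallowest group against 30.7 in the deepest, and Gata2 at 214 against 28.6. The groups were not the same mix of cells. Cells of the unnamed clusters made up 79.6%, 53.1%, 19.6%, 6.88% and 1.88% of them, from the shallowest to the deepest. Depth and this mix were not told apart.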
